A study of Mus musculus with 14 samples.

Results

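The comparison described here is that of HDAC1cKO with WT CD4+ T cells after restimulation with anti-CD3, and it covers 6 of the 14 RNA-Seq libraries of the series, 3 for each genotype. HDAC1cKO mice carry floxed *Hdac1* alleles and a *Cd4*-Cre transgene on a C57BL/6 background, so *Hdac1* is deleted in the T cell lineage while both *Hdac2* alleles stay intact. *Cd4*-Cre is active from the thymic stage at which CD4 and CD8 are both expressed, so the deletion precedes the culture. WT cells came from littermates without the deletion. CD4+ T cells, labelled as from spleen and per the study's methods taken from spleen together with peripheral lymph nodes, were sorted as naive cells and activated for 3 days with anti-CD3/anti-CD28 and IL-2 without polarizing cytokines ("Th0"), and they were then restimulated with anti-CD3 for 12 hours before RNA was taken. For the restimulated cells the paper cites an earlier study. Its own RNA-Seq methods describe harvest after 3 days, so their details may not all hold here. The other experiment of the series compared 4 HDAC1cKO-HDAC2HET samples with 4 WT samples after 3 days of activation and without restimulation. In the HDAC1cKO-HDAC2HET cells 1 *Hdac2* allele is floxed as well. All autosomal genes with a value in all 6 libraries were considered, 29970 in all, and 13336 of them had a mean of at least 0.1 fragments per kilobase of transcript per megaread mapped (FPKM) and were tested.

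HDAC1 and HDAC2 are closely related class I histone deacetylases that work in shared corepressor complexes, among them Sin3, NuRD, and CoREST, where they remove acetyl groups from histone tails. Loss of either enzyme is often buffered by the other. In T cells they take part in keeping genes of alternative lineages silent, such as genes of cytotoxic T lymphocytes (CTLs) in CD4+ T helper cells. CD4+ CTLs express T-bet or EOMES, IFN-γ, granzymes, and perforin, which are otherwise typical of CD8+ T and NK cells.

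Estimated library depth ranged from 27700000 to 47200000 fragments. The labels do not say whether replicates came from separate mice, so p-values measure the spread between these samples, and fewer cells of a type cannot be told apart from less RNA per cell. *Xist* read 42.9 FPKM in WT replicate 1, 33.2 FPKM in WT replicate 3, and below 0.05 FPKM in WT replicate 2 and in all 3 HDAC1cKO samples, which is why the comparison was kept to autosomes. Among the libraries without *Xist* there was 1 WT sample, so a comparison within that sex rests on WT replicate 2. Values given below without WT replicate 2 set WT samples with *Xist* against HDAC1cKO samples without it. The WT samples were less alike than the HDAC1cKO samples. Between 1138 and 1647 genes differed at least 2-fold between 2 WT samples, against 908 to 1058 between 2 HDAC1cKO samples. Transcripts of CD4+ T cells were abundant in every library, with *Cd4* between 170 and 242 FPKM. B cell markers summed to at most 1.56 FPKM, myeloid markers to at most 8.70 FPKM, and erythroid and platelet markers to at most 1.36 FPKM in any library. *Lyz2*, *S100a8*, and *S100a9* were at 0 throughout, as were *Ncr1* and *Klra8* of the NK list.

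*Hdac1* (chromosome 4, 129516104 to 129542713 in GRCm38, minus strand) was at 72.3, 81.1, and 73.4 FPKM in WT and at 8.52, 12.1, and 9.64 FPKM in HDAC1cKO cells. It fell by 2.91 on the log2 scale (standard error 0.14, adjusted p = 0.002 by limma with an intensity trend on log2(FPKM + 0.1), Benjamini-Hochberg adjusted). *Hdac2* was at 62.4, 78.2, and 76.4 FPKM in WT and at 78.3, 88.1, and 74.8 FPKM in HDAC1cKO cells, and the groups overlapped (log2 fold change 0.16, standard error 0.12, adjusted p = 0.581). With 3 samples against 3 the 2-sided exact permutation test cannot go below p = 0.1, which it gave for *Hdac1*, and it gave p = 0.4 for *Hdac2*. *Hdac3*, the other class I enzyme of T cell corepressors, was between 46.9 and 57.3 FPKM in all 6 samples.

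Few genes passed the test. An adjusted p of at most 0.05 was reached by 10 autosomal genes (0.075%), and with a 2-fold minimum added 1 was higher (0.0075% of those tested) and 8 were lower (0.06%) in HDAC1cKO cells. Besides *Hdac1* the falls with a known protein were *Ctla4*, which encodes the inhibitory receptor CTLA-4, and *2210016L21Rik*, a protein-coding gene on chromosome 5. *Ctla4* (chromosome 1, 60887000 to 60915832, plus strand) was at 129, 109, and 98.2 FPKM in WT and at 47.2, 45.3, and 47.0 FPKM in HDAC1cKO cells, which made a log2 difference of -1.26 (standard error 0.11, adjusted p = 0.0362). It was called in 10 of 18 fits, which besides this one had other settings or fewer samples. *2210016L21Rik* was at 24.7, 22.8, and 27.5 FPKM in WT and at 9.62, 10.1, and 9.74 FPKM in HDAC1cKO cells (log2 fold change -1.34, adjusted p = 0.013). For both genes the spread within a group was small against the distance between the groups.

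The pseudogene *Gm10093* on chromosome 17 is a processed pseudogene that went from 18.4, 19.3, and 20.2 FPKM to 1.96, 2.24, and 2.04 FPKM (log2 fold change -3.16, adjusted p = 0.000253). It is a near-copy of *Hdac1*, and reads from the gene and the copy could have been split between them. The other 5 calls were short or noncoding. The small RNA genes *Snord98*, *Gm25618*, and *Gm25025* and the pseudogene *Gm13685* were listed at 0 in all 3 HDAC1cKO samples. The small nucleolar RNA gene *Gm23823* was listed at 0 in all 3 WT samples. No fold is given for these 5 genes. *Snord98* and *Gm23823* also had means of 0 FPKM in both groups of the other experiment. Whether such zeros are failed estimates was not tested. *Vps29*, a subunit of the retromer that sorts endosomal cargo, rose with an adjusted p of 0.013 just under the 2-fold threshold, from 61.1, 56.0, and 59.5 FPKM to 120, 115, and 112 FPKM (log2 fold change 0.97). *Slc1a2* and *Vat1* lay just outside the threshold, each with an adjusted p of 0.0534.

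Without adjustment, p was under 0.05 for 892 genes above WT (6.69%) and 1034 below (7.75%). Because the test had so few calls, genes were also described by whether all 3 HDAC1cKO samples lay outside all 3 WT samples. This held for 1357 genes above WT (10.2% of those tested) and 1631 below (12.2%). These shares are the background for the list counts of all 6 samples below. With a fold change of at least 2 as well, 181 genes were higher (1.36%) and 227 were lower (1.7%), 8 of which were listed at 0 in a whole group. The median log2 fold change of all autosomal genes was -0.03. The balance varied with expression level, and the lists below were not matched for it. Among protein-coding genes with a mean of at least 100 FPKM, 19.7% were higher and 4.68% lower without overlap, whereas among those between 1 and 10 FPKM 9.14% were higher and 18.4% lower. Genes named below as higher or lower without overlap did not pass the adjusted test unless a call is stated, and members of a list that are named beyond its largest differences were chosen after their values had been seen.

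**Figure D1:**
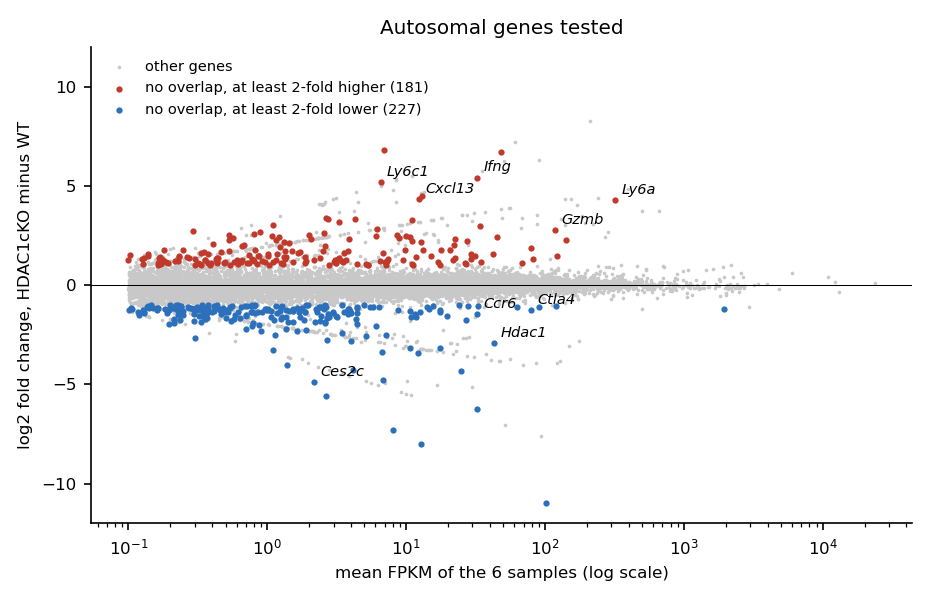
Each point is 1 of the 13336 autosomal genes tested, with its mean FPKM over the 6 samples (log scale) and its log2 fold change in HDAC1cKO against WT. Red and blue points are the 181 genes at least 2-fold higher and the 227 at least 2-fold lower whose groups did not overlap, and *Ifng* and *Ly6c1* are the highest and *Ces2c* is the lowest of the labelled genes.

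On the log2(FPKM + 0.1) scale the signature gene of Th1 cells showed the largest difference of any protein-coding gene whose groups did not overlap and whose locus covered no other gene, followed by *Ly6c1* and *Ces2c*. As a plain ratio of means *Ifng* was 34.1-fold higher, and *Ly6c1* (47.4-fold) and *Ces2c* (a ratio of 0.00676) differed by more. *Ifng*, which encodes IFN-γ (chromosome 10, 118441046 to 118445892, plus strand), was at 1.06, 0.457, and 4.01 FPKM in WT and at 50.8, 42.5, and 95.3 FPKM in HDAC1cKO cells. This was a log2 difference of 5.42 (standard error 0.75, adjusted p = 0.114). The WT samples were all below the HDAC1cKO samples, with a standard deviation of 1.90 FPKM in WT and 28.4 FPKM in HDAC1cKO cells. *Il12rb2*, the inducible chain of the IL-12 receptor, was at 14.3, 1.88, and 13.5 FPKM in WT and at 60.9, 50.4, and 64.4 FPKM in HDAC1cKO cells. *Tbx21*, which encodes T-bet, was at 15.0, 3.04, and 46.5 FPKM in WT and at 70.9, 66.0, and 70.7 FPKM in HDAC1cKO cells. For both genes WT replicate 2 was the lowest of all 6 samples. The log2 fold change of *Tbx21* was 2.41 (standard error 0.92, adjusted p = 0.326). It was 1.38 without WT replicate 2 and 3.33 without WT replicate 3. With sex as a covariate, which sets the HDAC1cKO samples against WT replicate 2 alone, it was 4.46. *Eomes*, the T-box factor of memory and NK cells, was at 8.83, 3.79, and 11.4 FPKM in WT and at 34.0, 41.6, and 34.5 FPKM in HDAC1cKO cells (log2 fold change 2.31, standard error 0.40, adjusted p = 0.147).

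Of the 18 members of the Th1 and IFN-γ axis tested, 6 were higher and 2 were lower without overlap, with a median log2 fold change of 0.30 against -0.03 for all autosomal genes. *Stat4*, which transmits the IL-12 signal, was between 109 and 121 FPKM in HDAC1cKO and between 79.8 and 106 FPKM in WT cells. The 2 members below WT were *Il18rap*, a chain of the IL-18 receptor (log2 fold change -1.0), and *Hlx*, a homeobox factor (-0.45).

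Cytotoxic effector genes were more often higher than lower. Among the 21 members tested of granule and death ligand genes, 8 were higher and 3 lower without overlap. Over all autosomal genes tested 10.2% were higher and 12.2% lower, so the lower members were near the share of all genes. *Gzmb*, which encodes granzyme B (chromosome 14, 56258838 to 56262260, minus strand), was at 63.9, 16.7, and 23.3 FPKM in WT and at 203, 172, and 234 FPKM in HDAC1cKO cells (log2 fold change 2.78, standard error 0.49, adjusted p = 0.147). *Prf1*, which encodes the pore-forming protein perforin (chromosome 10, 61297833 to 61304680, plus strand), was at 0.352, 0.203, and 0.349 FPKM in WT and at 2.17, 1.48, and 2.68 FPKM in HDAC1cKO cells (log2 fold change 2.45, standard error 0.30, adjusted p = 0.0767). Perforin transcripts were at a low level in both genotypes. *Nkg7*, which encodes a granule membrane protein, was at 19.6, 28.1, and 151 FPKM in WT and at 273, 179, and 202 FPKM in HDAC1cKO cells. *Crtam*, an adhesion receptor that marks CD4+ T cells with cytotoxic potential, was at 20.4, 15.7, and 29.0 FPKM in WT and at 54.8, 72.5, and 58.8 FPKM in HDAC1cKO cells (log2 fold change 1.55, adjusted p = 0.13). All 4 genes separated the genotypes without overlap.

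The remaining members of that list varied in direction. The death ligand gene *Fasl*, the granule-release factor gene *Unc13d*, and the granzyme inhibitor genes *Serpinb9* and *Serpinb6b* were higher by 0.35 to 0.70 on the log2 scale. *Gzmf* and *Lyst* were lower without overlap, as was *Stx11*, which encodes a syntaxin of granule fusion (99.1, 71.9, and 51.3 FPKM in WT and 40.4, 35.4, and 43.9 FPKM in HDAC1cKO cells). *Gzmc* was below 0.52 FPKM throughout. *Lamp1*, which encodes the degranulation marker CD107a, was at 64.6 to 86.5 FPKM in WT and at 80.1 to 90.2 FPKM in HDAC1cKO cells.

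Of the 27 receptors of killer cells listed, 7 were tested, and 12 had a mean below 0.1 FPKM. *Klrk1*, which encodes the activating receptor NKG2D, was the member higher without overlap, at 0.583, 0.0288, and 1.01 FPKM in WT and at 4.31, 4.69, and 5.21 FPKM in HDAC1cKO cells (log2 fold change 3.39, adjusted p = 0.197). *Klrd1* was at 0.366 to 0.501 FPKM in HDAC1cKO against 0.308 to 0.459 FPKM in WT cells, and *Klrc1* overlapped as well. *Cd226*, an adhesion receptor of T and NK cells, was lower without overlap (39.9, 43.9, and 43.7 FPKM in WT and 31.5, 28.2, and 32.4 FPKM in HDAC1cKO cells).

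The CD8 coreceptor genes were higher but remained low beside *Cd4*. *Cd8a* was at 0.0328, 0.0082, and 0.120 FPKM in WT and at 0.279, 0.252, and 0.299 FPKM in HDAC1cKO cells. *Cd8b1* was at 4.83, 4.30, and 3.68 FPKM in WT and at 6.80, 6.27, and 7.00 FPKM in HDAC1cKO cells. The *Cd4* level did not separate the genotypes (170, 242, and 218 FPKM in WT and 232, 215, and 202 FPKM in HDAC1cKO cells). Among the factors that set the CD4 and CD8 lineages, *Runx3* was at 23 to 25.6 FPKM in WT and at 27.7 to 31.3 FPKM in HDAC1cKO cells (log2 fold change 0.28), and *Zbtb7b*, which encodes ThPOK, was at 22.3 to 33.8 FPKM in WT and at 23.1 to 25.9 FPKM in HDAC1cKO cells (-0.18). *Ikzf3*, which encodes the Ikaros family factor Aiolos, was at 2.01, 1.32, and 2.22 FPKM in WT and at 5.69, 3.24, and 4.34 FPKM in HDAC1cKO cells. *Tox* was lower (13.1, 13.1, and 13.4 FPKM against 9.61, 8.74, and 9.64 FPKM), with hardly any spread among the WT samples.

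**Figure D2:**
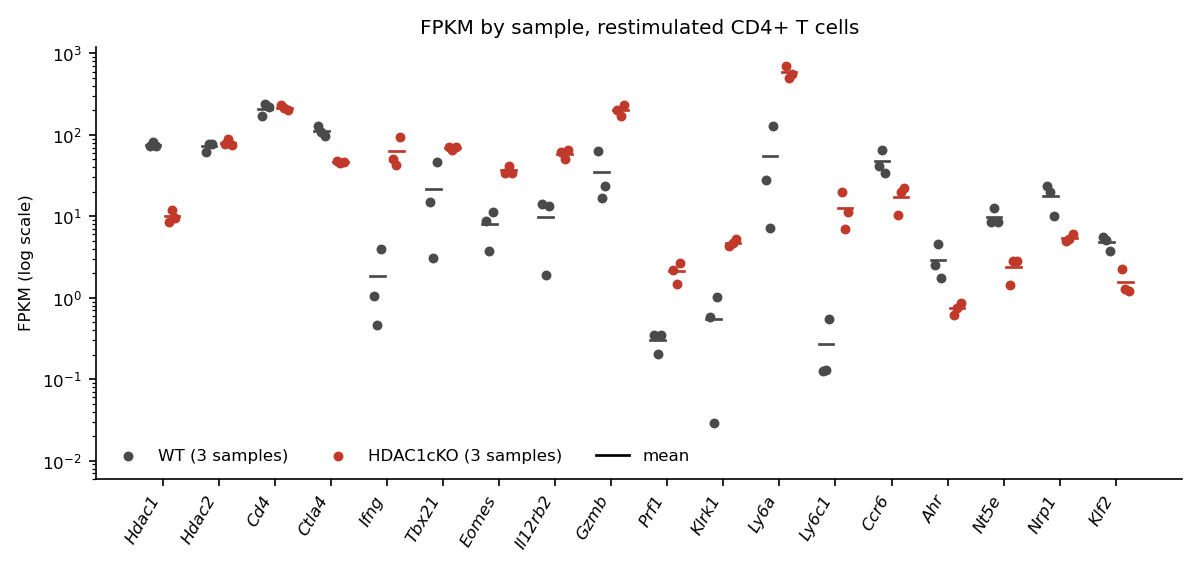
Points give the FPKM (log scale) of 18 genes in each of the 3 WT (grey) and 3 HDAC1cKO (red) samples, and short lines give the group means. *Ifng*, *Gzmb*, *Prf1*, and *Ly6c1* sit higher in all 3 HDAC1cKO samples, *Ctla4*, *Ccr6*, and *Nt5e* sit lower, and *Hdac2* and *Cd4* overlap.

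Leaving out 1 WT sample loosens the non-overlap criterion, and over all genes tested it then held for 14.6% to 15.9% above and 15.2% to 24.2% below WT, which is the background for the counts without a sample given below. The Ly6 surface proteins gave the largest list median, 1.35 on the log2 scale, with 5 of 8 members tested higher and 1 lower without overlap. *Ly6a*, which encodes Sca-1, a marker of activated and memory T cells, was at 28.0, 7.2, and 129 FPKM in WT and at 696, 493, and 567 FPKM in HDAC1cKO cells (log2 fold change 4.28, adjusted p = 0.192). *Ly6c1* was at 0.127, 0.128, and 0.554 FPKM in WT and at 20.2, 6.99, and 11.2 FPKM in HDAC1cKO cells (log2 fold change 5.18, standard error 0.56, adjusted p = 0.0615). *Ly6c2* and *Ly6i*, with log2 fold changes of 3.35 and 2.27, went the same way, and *Psca* was lower (-0.57). The fifth member above WT was *Ly6e*, and all 5 genes lie on chromosome 15. Since *Ly6c1* and *Ly6c2* are near-identical in sequence, reads could have been split between them.

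Other genes among the 12 largest differences above WT encode secreted or signalling proteins. *Serpina3f*, a serine protease inhibitor, was at 0.926, 0.133, and 5.15 FPKM in WT and at 29.3, 20.8, and 22.2 FPKM in HDAC1cKO cells. *Cxcl13*, the chemokine that attracts CXCR5+ lymphocytes to follicles, was at 0.544, 0.160, and 6.76 FPKM in WT and at 14.6, 21.8, and 30.2 FPKM in HDAC1cKO cells. *Spp1*, which encodes osteopontin, was at 0.456, 0.40, and 0.859 FPKM in WT and at 8.11, 4.07, and 5.75 FPKM in HDAC1cKO cells (log2 fold change 3.19, standard error 0.36, adjusted p = 0.0632), with little spread in WT. *Tbkbp1*, an adaptor of the kinase TBK1 whose gene lies next to *Tbx21* on chromosome 11, had a log2 fold change of 3.29, and *Gm4951*, a predicted GTPase gene, had 2.85. For *Serpina3f*, *Cxcl13*, *Tbkbp1*, *Ly6a*, and *Tbx21* WT replicate 3 was the highest and WT replicate 2 the lowest of the WT samples.

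Promoter sequences of 4 genes are given below because they belong to the gene with the largest difference, to 2 genes of cytotoxic cells with a large difference, and to *Ctla4*, which fell. They run from 250 bases before to 50 bases after the RefSeq start site in GRCm38.p6, 5′ to 3′ on the strand of the gene, and capitals mark matches on either strand to a RUNX motif (TGTGGT), a T-box motif (GGTGTG), a STAT motif (TTCNNNGAA), or an interferon response motif (GAAANNGAAA), which may overlap each other. *Ifng* lies at chr10:118440796-118441095 on the plus strand, *Gzmb* at chr14:56262285-56262584 on the minus strand, *Klrk1* at chr6:129623815-129624114 on the minus strand, and *Ctla4* at chr1:60908775-60909074 on the plus strand. The RefSeq start site used lay 22025 bases from the start of the annotated gene for *Ctla4*, 74 for *Gzmb*, and 0 for *Ifng* and *Klrk1*.
Ifng: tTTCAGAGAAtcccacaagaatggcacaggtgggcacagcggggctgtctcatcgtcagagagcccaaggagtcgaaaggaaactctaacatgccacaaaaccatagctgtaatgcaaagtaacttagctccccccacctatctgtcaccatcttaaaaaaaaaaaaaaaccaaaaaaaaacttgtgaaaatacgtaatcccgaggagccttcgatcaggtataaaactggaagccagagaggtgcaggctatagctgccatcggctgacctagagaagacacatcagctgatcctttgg
Gzmb: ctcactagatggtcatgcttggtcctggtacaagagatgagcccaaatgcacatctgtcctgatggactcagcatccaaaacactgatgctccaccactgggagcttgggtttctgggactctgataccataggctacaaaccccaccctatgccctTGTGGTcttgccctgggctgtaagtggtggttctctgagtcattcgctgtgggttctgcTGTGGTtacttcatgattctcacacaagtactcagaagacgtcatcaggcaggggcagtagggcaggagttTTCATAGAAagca
Klrk1: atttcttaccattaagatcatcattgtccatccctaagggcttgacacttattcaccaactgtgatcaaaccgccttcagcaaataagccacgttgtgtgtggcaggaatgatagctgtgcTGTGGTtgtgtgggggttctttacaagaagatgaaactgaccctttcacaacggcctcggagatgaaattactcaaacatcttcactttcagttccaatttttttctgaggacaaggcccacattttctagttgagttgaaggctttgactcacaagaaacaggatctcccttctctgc
Ctla4: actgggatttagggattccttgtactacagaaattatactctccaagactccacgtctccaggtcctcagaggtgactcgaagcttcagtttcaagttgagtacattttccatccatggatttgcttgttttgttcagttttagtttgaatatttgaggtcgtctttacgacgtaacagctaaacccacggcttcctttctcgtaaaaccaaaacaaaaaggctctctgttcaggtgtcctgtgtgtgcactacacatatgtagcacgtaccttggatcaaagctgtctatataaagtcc

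The *Gzmb* sequence held 2 RUNX matches and 1 STAT match, that of *Klrk1* held 1 RUNX match, that of *Ifng* held 1 STAT match, and that of *Ctla4* held none. Of the 12 largest differences above WT, 10 had a promoter in the table used, and 5 of those 10 held the RUNX motif, against 16.9% of all 27025 promoters of that length and 12.1% of those of autosomal genes tested. The STAT motif was in 4 of the 10, against 8.35% of all promoters, and the T-box motif was in 1 of the 10, against 19% of all. Of the 12 largest differences below WT, 11 had a promoter, of which 2 held the RUNX motif, 2 the STAT motif, and 3 the T-box motif. The interferon response motif was in 2 of these 11, *Ifit3* and *Ifit3b*, and in 3.49% of all promoters. These matches are descriptions of letters in a window and not of bound sites.

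MHC class I genes, which present peptides to CD8+ T cells, mostly lay above WT by small differences. All 24 members were tested, and 15 were higher and 1 was lower without overlap, with a median log2 fold change of 0.41. *B2m*, the invariant light chain, was at 1766, 1212, and 2057 FPKM in WT and at 2333, 2230, and 2079 FPKM in HDAC1cKO cells. *H2-K1* was at 776, 636, and 823 FPKM in WT and at 920, 1125, and 864 FPKM in HDAC1cKO cells, and *H2-D1* went from 295 to 450 FPKM in WT to 490 to 526 FPKM in HDAC1cKO cells. The peptide transporter gene *Tap2* (log2 fold change 0.75) and the nonclassical gene *H2-T23* (0.75) followed the same pattern. *H2-Q6* and *H2-Q7* had the largest differences, 1.57 and 1.31, but paralogs of this family share reads. *Cd1d1*, which presents lipids, was lower (0.824, 1.28, and 3.47 FPKM in WT and 0.625, 0.733, and 0.644 FPKM in HDAC1cKO cells). WT replicate 2 was the lowest of all 6 samples for 20 of the 24 members, and without it 16 members were higher, with a median of 0.23. With sex as a covariate, which sets the HDAC1cKO samples against WT replicate 2 alone, the median was 0.82.

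Genes induced by type I and type II interferon overlapped between the genotypes in most cases, and the WT samples differed widely among themselves. Of the 51 members tested, 3 were higher and 2 were lower without overlap. WT replicate 1 was the highest WT sample for 47 of these 51 members and WT replicate 2 was the lowest for 37. *Isg15* was at 365, 74.8, and 93.8 FPKM in WT and at 156, 261, and 220 FPKM in HDAC1cKO cells. *Ifit1* was at 86.1, 9.49, and 9.31 FPKM in WT and at 10.9, 12.2, and 12.7 FPKM in HDAC1cKO cells, and *Isg20* was at 85.9, 16.5, and 10.9 FPKM in WT and at 9.17 to 13.8 FPKM in HDAC1cKO cells. The 3 HDAC1cKO samples lay close together for these genes. *Ifit3* was at 17.8, 1.14, and 0.589 FPKM in WT and at 0.354, 0.424, and 0.341 FPKM in HDAC1cKO cells. Its log2 fold change of -2.40 became -0.97 without WT replicate 1, and *Ifit3b* (log2 fold change -2.05) had the same pattern.

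The counts for this list changed with single WT libraries. Without WT replicate 1, 33 of 52 members tested were higher and 2 were lower, with a median log2 fold change of 0.75. Without WT replicate 2, 3 were higher and 3 lower with a median of -0.11. That omission leaves WT samples with *Xist* against HDAC1cKO samples without it. With sex as a covariate, which sets the HDAC1cKO samples against WT replicate 2 alone, the median was 0.94. In the comparison of all 6 samples without that covariate the median was 0.27. Members that were higher without overlap in that comparison were *Stat2* (37.5, 14.5, and 26.7 FPKM against 44.5, 44.8, and 42.0 FPKM), the tethering factor gene *Bst2*, and the GTPase gene *Irgm2*, whose locus also covers *Igtp*. *Socs3*, a feedback inhibitor of cytokine signalling, was at 15.8, 3.31, and 3.4 FPKM in WT, against 6.86 to 8.31 FPKM in HDAC1cKO cells.

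**Figure D3:**
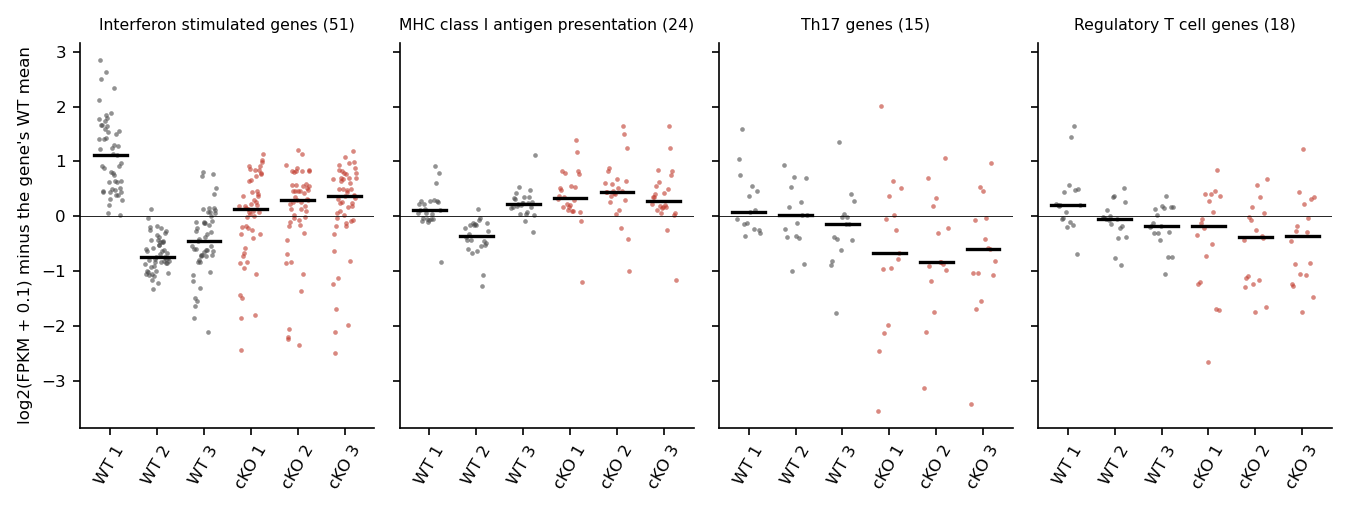
For 4 gene lists, each point is 1 member's log2(FPKM + 0.1) in 1 sample minus that member's mean over the 3 WT samples, with WT in grey, HDAC1cKO (cKO) in red, the sample median as a black line, and the number of members in the title. The interferon list splits the WT samples, with medians of 1.12, -0.74, and -0.45, and the Th17 list is lower in all 3 HDAC1cKO samples, with medians of -0.67, -0.83, and -0.60.

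Th17 genes were the list with the lowest median, -0.56 on the log2 scale. Of 15 members tested, none was higher and 7 were lower without overlap, and without 1 WT sample 7 or 8 were lower and at most 2 were higher. *Rora*, a nuclear receptor, was at 7.51, 3.06, and 2.01 FPKM in WT and at 0.570, 0.758, and 1.71 FPKM in HDAC1cKO cells. *Ahr*, which encodes the aryl hydrocarbon receptor, was at 2.51, 4.56, and 1.75 FPKM in WT and at 0.616, 0.745, and 0.861 FPKM in HDAC1cKO cells (log2 fold change -1.76). *Cyp1a1*, a classical target of that receptor, was at 8.70, 3.93, and 1.90 FPKM in WT and at 0.223, 0.712, and 0.795 FPKM in HDAC1cKO cells (log2 fold change -2.74). *Ccr6*, the chemokine receptor of Th17 cells, was at 41.5, 66.1, and 34.3 FPKM in WT and at 10.3, 20.1, and 22.1 FPKM in HDAC1cKO cells. *Il6st*, *Batf*, and *Tmem176a* were also lower, whereas *Il17a* was at most 0.424 FPKM in any sample. WT expression of *Ahr* and *Ccr6* was highest in replicate 2.

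Genes of regulatory T cells were lower as well, 8 of 18 tested against 2 higher, with a median of -0.28. *Foxp3* lies on chromosome X and was not part of the comparison. *Nt5e*, which encodes the ectonucleotidase CD73, was at 8.47, 12.5, and 8.54 FPKM in WT and at 1.45, 2.83, and 2.81 FPKM in HDAC1cKO cells (log2 fold change -2.05, standard error 0.31, adjusted p = 0.121). *Nrp1*, the semaphorin receptor neuropilin 1, was at 23.8, 20.1, and 9.99 FPKM in WT and at 5.04, 5.27, and 6.03 FPKM in HDAC1cKO cells. *Ikzf2*, which encodes Helios, was at 1.6, 1.34, and 1.27 FPKM in WT and at 0.551, 0.587, and 0.522 FPKM in HDAC1cKO cells. *Il2ra*, the high-affinity IL-2 receptor chain, was lower by less (313, 267, and 235 FPKM against 212, 199, and 198 FPKM). *Lrrc32* and *Ebi3* were lower without overlap, and *Lag3* was higher (76.2, 50.7, and 74.4 FPKM against 84.9, 105, and 84.1 FPKM).

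Inhibitory and costimulatory receptors overlap with that list, and 8 of 19 tested were lower and 2 higher. *Pdcd1*, which encodes PD-1, was at 77.4, 110, and 90.5 FPKM in WT and at 70.2, 70.5, and 64.9 FPKM in HDAC1cKO cells. *Cd28* and *Icos*, which give costimulation, had log2 fold changes of -0.26 and -0.54. *Cd200r1* was low in both groups, at 0.488 to 1.17 FPKM in WT and 0.216 to 0.395 FPKM in HDAC1cKO cells. *Cd274* had a log2 fold change of -0.13 and *Pdcd1lg2* overlapped. *Cd80* was higher (29.8, 27.2, and 35.7 FPKM against 37.8, 45.1, and 44.3 FPKM). In both lists *Ctla4* was the member that passed the test.

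Follicular helper genes showed no member above WT and 6 of 13 below, with a median of -0.32. *Bcl6*, the repressor that sets this lineage, was at 4.03, 4.53, and 5.28 FPKM in WT and at 3.56, 3.94, and 3.67 FPKM in HDAC1cKO cells. The locus behind *Bcl6* also covers *Gm37419*. *Pou2af1*, a coactivator of octamer factors, was at 18.3, 27.0, and 15.3 FPKM in WT and at 11.3, 7.24, and 7.88 FPKM in HDAC1cKO cells, and *P2rx7*, a receptor for extracellular ATP, had a log2 fold change of -1.12. *Btla* had a narrow spread in both groups (108, 116, and 116 FPKM against 91.6, 90.0, and 89.7 FPKM). *Cxcl13*, which follicular helper cells can also produce, was higher, as given above.

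Among 20 transcription factors of effector and memory cells tested, 7 were lower and 1 was higher without overlap, and without WT replicate 1 the counts were 8 and 6. *Klf2*, which keeps T cells in circulation, was at 5.52, 5.13, and 3.76 FPKM in WT and at 2.23, 1.29, and 1.21 FPKM in HDAC1cKO cells (log2 fold change -1.58). *Id2* and *Id3*, inhibitors of E proteins, had log2 fold changes of -1.03 and -0.66. *Foxo1* was at 22.5, 20.8, and 18.7 FPKM in WT and at 15.5, 13.1, and 15.0 FPKM in HDAC1cKO cells. *Batf3* was the member above WT, at 4.38, 2.01, and 3.74 FPKM in WT and at 9.30, 9.95, and 11.6 FPKM in HDAC1cKO cells. *Prdm1*, which encodes Blimp-1, was at or below 0.254 FPKM in every sample with overlapping groups. The locus behind this value spans the whole annotated gene, which may be wider than the transcript.

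Of 21 Th2 genes 7 were below 0.1 FPKM on average, and of the 12 tested 1 was higher and 3 were lower. Leaving out WT replicate 1 gave 5 higher and 4 lower, and the median went from -0.09 to 0.08. *Gata3*, the Th2 lineage factor, was at 16.5, 12.5, and 11.6 FPKM in WT and at 11.2, 9.93, and 10.9 FPKM in HDAC1cKO cells, from a locus that also covers noncoding genes. *Ccr4*, a chemokine receptor of Th2 and regulatory T cells, was at 53.2, 52.2, and 20.8 FPKM in WT and at 12, 11.7, and 11.0 FPKM in HDAC1cKO cells (log2 fold change -1.73). *Areg*, an epidermal growth factor ligand, had a log2 fold change of -1.63. *Il4ra* was higher (34.2, 35.9, and 40.2 FPKM against 44.0, 49.1, and 49.5 FPKM).

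Of 21 T cell cytokines tested, 3 were higher without overlap, *Ifng*, *Spp1*, and *Tnf* (27.2, 39.3, and 59.5 FPKM in WT and 71.1, 74.3, and 75.6 FPKM in HDAC1cKO cells), and 2 were lower, *Il16* and *Csf1*. Without WT replicate 1, 10 were higher and 3 lower, and the median went from 0.21 to 0.61. *Il2*, the growth factor made upon TCR triggering, was at 244, 192, and 276 FPKM in WT and at 162, 313, and 344 FPKM in HDAC1cKO cells. *Il3* and *Lta* overlapped likewise. Among chemokines 2 of 13 were higher, *Ccl3* (162, 193, and 318 FPKM against 363, 381, and 426 FPKM) and *Ccl4*, and *Ccl1* overlapped. Without WT replicate 1 there were 5 chemokines above WT, and without WT replicate 3 there were 6.

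Receptors for cytokines went both ways, 5 of 24 tested higher and 9 lower. *Il10ra* was at 12.6, 3.26, and 18.4 FPKM in WT and at 44.5, 41.8, and 44.0 FPKM in HDAC1cKO cells (log2 fold change 2.24). *Il15ra*, which presents IL-15, and *Il7r*, the IL-7 receptor chain of memory precursors, had log2 fold changes of 1.07 and 1.02. *Il2rb* overlapped. *Il9r* was at 0.782, 2.32, and 0.637 FPKM in WT and at 0.125, 0.115, and 0.226 FPKM in HDAC1cKO cells. *Il1r2*, the IL-1 decoy receptor, was at 1.95, 2.69, and 2.29 FPKM in WT and at 0.430, 0.588, and 0.292 FPKM in HDAC1cKO cells (log2 fold change -2.19, standard error 0.27, adjusted p = 0.0767). *Ifnar1*, a chain of the type I interferon receptor, had a log2 fold change of -0.32, and *Tgfbr1* and *Tgfbr2* had -0.67 and -0.28.

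Among 18 chemokine and homing receptors, 6 were lower and 3 higher, and *Gpr183*, which guides cells to follicle borders, was at 44.2, 39.0, and 29.9 FPKM in WT and at 15.9, 21.8, and 16.2 FPKM in HDAC1cKO cells. *Cxcr6*, at 0.654, 1.59, and 0.727 FPKM in WT, was at 0.480, 0.410, and 0.295 FPKM in HDAC1cKO cells. Among 24 TNF superfamily genes, 7 were lower and 2 higher. Without WT replicate 3 the homing receptors had 7 lower and 6 higher, and the TNF superfamily had 9 lower and 7 higher. *Tnfsf8*, the CD30 ligand, was at 192, 103, and 81.2 FPKM in WT and at 55.8, 54.0, and 54.0 FPKM in HDAC1cKO cells. *Tnfrsf26*, *Tnfsf14*, and *Tnfrsf8* had log2 fold changes of -1.6, -0.82, and -0.77. *Tnfrsf4*, which encodes OX40, was abundant in both groups, at 690, 710, and 723 FPKM in WT and at 607, 674, and 625 FPKM in HDAC1cKO cells (log2 fold change -0.16).

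The largest differences below WT also named genes outside these lists. *Ces2c*, a carboxylesterase gene, was at 4.65, 6.82, and 1.55 FPKM in WT and at 0.0141, 0.0630, and 0.0108 FPKM in HDAC1cKO cells (log2 fold change -4.89, standard error 0.56, adjusted p = 0.0632). *Cd5l*, a secreted scavenger receptor protein also described in Th17 cells, was at 1.14, 2.89, and 2.15 FPKM in WT and at 0.0262, 0.275, and 0.101 FPKM in HDAC1cKO cells. *Gpr55*, a lysophospholipid receptor, was at 1.42, 2.91, and 1.69 FPKM in WT and at 0.329, 0.210, and 0.241 FPKM in HDAC1cKO cells (adjusted p = 0.0905). *Derl3*, of endoplasmic reticulum associated degradation, and *Arhgef11*, a guanine nucleotide exchange factor, had log2 fold changes of -2.30 and -2.24. These genes were expressed at a few FPKM in WT and at less than 1 FPKM in every HDAC1cKO sample.

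Of 33 members of the TCR complex and its signalling tested, 3 were higher and 4 lower, with a median of 0.01. *Cd3d*, *Cd3e*, and *Cd3g* overlapped, with log2 fold changes between -0.07 and 0.13. *Cd247*, the CD3 zeta chain, was higher (86.5, 62.9, and 91.5 FPKM against 159, 147, and 118 FPKM), as was the adaptor gene *Lat*, while *Zap70* and *Sla* were lower, with log2 fold changes of -0.34 and -0.33. With WT replicate 1 left out, 6 members of this list were higher and 9 lower. Of 34 early response genes 9 were lower and 2 higher, and without WT replicate 1 there were 12 and 6. *Dusp1*, a MAP kinase phosphatase, was at 23.8, 19.9, and 20.9 FPKM in WT and at 11.6, 12, and 11.2 FPKM in HDAC1cKO cells (log2 fold change -0.89, standard error 0.09, adjusted p = 0.0606). *Egr4*, *Fosb*, *Junb*, and *Rel* were lower as well, whereas *Egr1*, *Egr2*, and *Egr3* overlapped. Of 18 SOCS and other negative regulators tested, 2 were higher, *Rgs16* and *Spred1*, and 2 were lower, *Socs4* and *Dusp10*, and *Socs2* overlapped. With all 6 samples the SOCS and TCR counts lay near the shares of all autosomal genes tested, 10.2% higher and 12.2% lower.

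Among 56 cell cycle and DNA replication genes, 8 were higher and none lower, with a median of 0.01, and the largest difference of the 8 was 0.29 for *Ccnb1*. Without WT replicate 1 there were 9 higher and 9 lower, and without WT replicate 2 there were 17 and 1. *Mcm2*, a helicase subunit, was at 79.5, 76.0, and 70.8 FPKM in WT and at 85.4, 82.1, and 80.9 FPKM in HDAC1cKO cells, and *Mcm3* and *Mcm4* overlapped. Of the 8 CDK inhibitors, *Cdkn2a* and *Cdkn2d* were higher, *Cdkn1b* was lower, and *Cdkn1a* and *Cdkn1c* overlapped. *Cdkn2a* was at most 0.332 FPKM. In the BCL-2 family 4 of 18 were higher, led by *Bok* (0.492, 0.306, and 0.437 FPKM against 1.12, 1.31, and 1.51 FPKM), and 3 were lower, among them *Bcl2*, while *Bcl2l1* overlapped. Of 28 glycolysis and nutrient transport genes 6 were higher and 1 was lower, with non-overlapping differences from -0.53 for *Bnip3* to 0.58 for *Slc16a3*, the lactate exporter. Of 34 respiratory chain and TCA cycle genes 7 were higher and 1 lower, and of 25 sterol synthesis genes 2 were higher and 4 lower. The shares of all autosomal genes tested were 10.2% higher and 12.2% lower. Among protein-coding genes with a mean of at least 100 FPKM they were 19.7% and 4.68%. The 34 respiratory chain and TCA cycle genes summed to 5555 to 7517 FPKM per library. Leaving out WT replicate 1 gave 12 glycolysis genes higher and 2 lower, and 7 respiratory chain genes higher and 5 lower.

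Among 30 class I HDAC and corepressor genes, 7 were higher and 1 lower without overlap. *Rcor2*, a CoREST subunit, was at 0.777, 0.474, and 0.842 FPKM in WT and at 4.93, 1.64, and 1.72 FPKM in HDAC1cKO cells (log2 fold change 1.69). *Mbd3* and *Gatad2a*, subunits of NuRD, were higher by 0.30 and 0.27, and *Brms1* of the Sin3 complex was higher by 0.31. None of 22 DNA methylation and Polycomb genes was higher and 6 were lower, and *Dnmt1* and *Dnmt3a* overlapped. Among 17 acetyltransferase and bromodomain genes 2 were higher and 5 lower, with *Crebbp* at 10.2, 6.90, and 6.76 FPKM in WT and 5.93, 4.04, and 5.62 FPKM in HDAC1cKO cells. Of 14 replication-independent and linker histone genes 4 were lower. Of neuronal and muscle genes 18 were tested, several of them well expressed in every library, and 3 were higher and 4 lower, led by *Tpm2* (0.0896, 0.644, and 0.687 FPKM against 2.21, 1.55, and 2.73 FPKM).

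**Figure D4:**
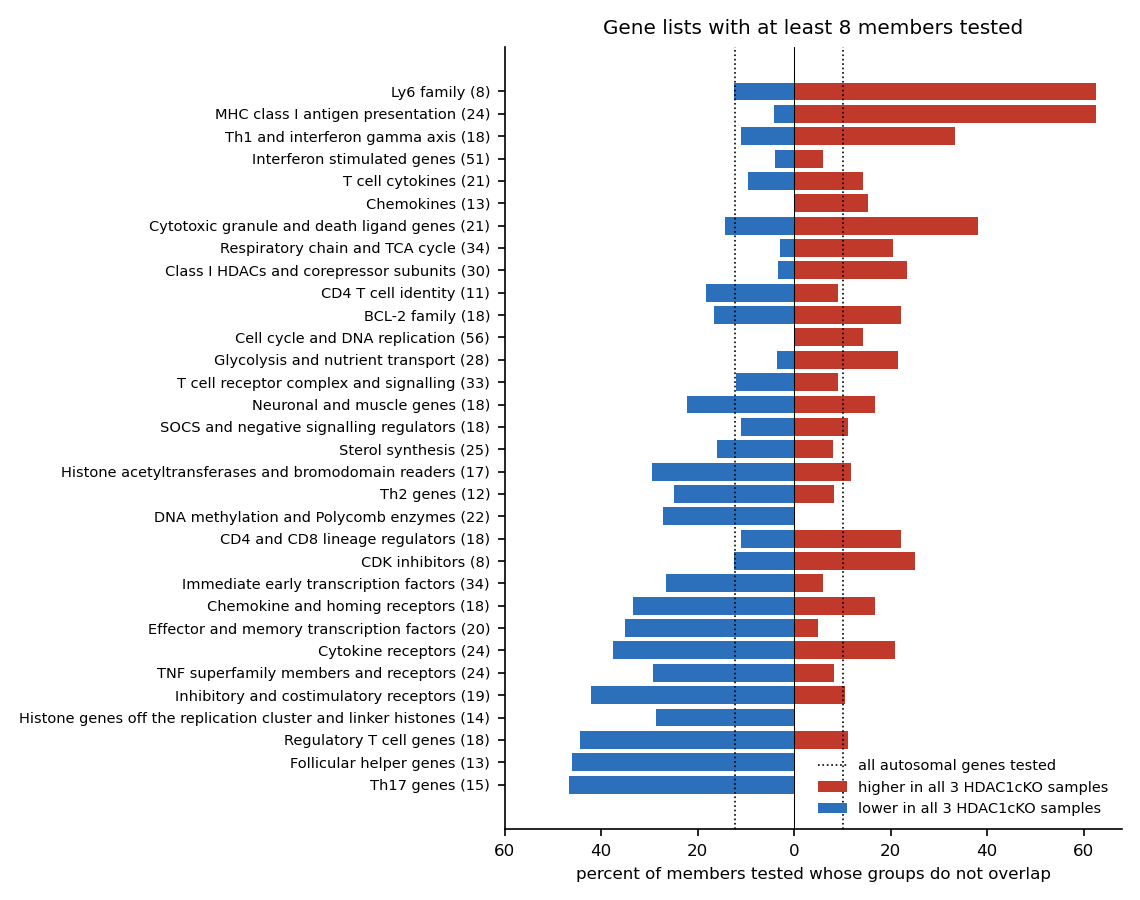
Bars give, for the 32 lists with at least 8 members tested (number in brackets), the percent of members higher (red, to the right) or lower (blue, to the left) in all 3 HDAC1cKO samples than in all 3 WT samples. Lists are ordered by median log2 fold change and dotted lines mark the 10.2% and 12.2% of all autosomal genes tested, so Ly6 and MHC class I genes stand at one end and Th17, follicular helper, and regulatory T cell genes at the other.

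The marker lists of other cells were also examined. NK and innate-like T markers summed to 4.29 to 11.8 FPKM in WT and to 35.0 to 41.9 FPKM in HDAC1cKO libraries, and *Eomes* gave most of that sum. The 2 CD8 T cell markers *Cd8a* and *Cd8b1* summed to 3.8 to 4.86 FPKM in WT and to 6.52 to 7.30 FPKM in HDAC1cKO libraries. Of the 8 members of the NK list with a value, 4 were under 0.1 FPKM in every library, among them *Ncr1* and *Klra8* at 0. The part of other cells in the cytotoxic values was not tested. *Cd79b*, a B cell receptor chain, was at 0.304 to 0.483 FPKM in WT and 0.511 to 0.778 FPKM in HDAC1cKO cells. *Adgre1*, the macrophage marker F4/80, was at most 0.354 FPKM.

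Genes were also compared by their position. Of 252 autosomal genes tested within 10 Mb of *Hdac1*, 24 were higher (9.52%) and 15 were lower (5.95%) without overlap, with *Hdac1* left out. Of these, *Asap3*, *Fam167b*, *Frg2f1*, *Gm13010*, and *Nbl1* differed at least 2-fold. Both shares were below those of all autosomal genes. By chromosome, the share at least 2-fold higher ran from 0.621% on chromosome 1 to 3.09% on chromosome 15, where 4 of the 16 genes were *Ly6* genes, and the share at least 2-fold lower ran from 0.772% on chromosome 15 to 3.23% on chromosome 1.

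The same genes were read in the experiment with HDAC1cKO-HDAC2HET cells, which shares no sample with this one. It differs in culture as well as in genotype, and the paper cites an earlier study for the restimulated cells. The restimulated libraries listed 24363 to 25130 rows by gene, against 36704 to 38572 in the libraries of the other experiment. The effects of the *Hdac2* allele, of restimulation, and of the study therefore cannot be told apart. Of the 181 genes at least 2-fold higher without overlap, 170 had a value in the other experiment. Of these, 154 (90.6%) differed from WT in the same direction, against 71.5% of all genes with a value in both. Of the 227 lower genes 203 had a value, and 172 (84.7%) had the same direction. The median log2 fold change of the 170 higher genes was 1.41 in HDAC1cKO and 1.82 in HDAC1cKO-HDAC2HET cells, and that of the 203 lower genes was -1.33 and -1.06. Since the genes were selected in HDAC1cKO cells, these medians are a description and not a test.

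The difference between the fold changes passed the test over all 14 samples (limma, same adjusted threshold) for 1902 of 12888 autosomal genes (14.8%). Some cytotoxic genes were among those with the larger change in HDAC1cKO-HDAC2HET cells, and others did not pass. The log2 fold change of *Prf1* was 2.45 in HDAC1cKO and 5.64 in HDAC1cKO-HDAC2HET cells (difference -3.19, adjusted p = 5.85e-05), that of *Gzmb* was 2.78 and 4.89 (adjusted p = 0.0225), and that of *Klrk1* was 3.39 and 6.25 (adjusted p = 0.0339). *Runx3* and *Prdm1* likewise had smaller values in HDAC1cKO cells, with differences of -1.31 and -3.08. Restimulated *Prdm1* means were near the pseudocount, 0.0879 FPKM in WT and 0.206 FPKM in HDAC1cKO cells, so its difference is set in part by it. The fold changes of *Ifng* (5.42 and 6.31, adjusted p = 0.492), *Ly6c1* (5.18 and 6.54, adjusted p = 0.142), *Eomes* (2.31 and 3.71, adjusted p = 0.0726), and *Tbx21* (2.41 and 1.83, adjusted p = 0.726) did not pass the test of the difference. Nor did those of *Nkg7* (2.29 and 2.02, adjusted p = 0.854), *Crtam* (1.55 and 2.21, adjusted p = 0.172), and *Cd8a* (1.36 and 1.76, adjusted p = 0.525). A difference that misses the threshold does not show that the changes were alike. *Hdac2* itself differed by 0.89 between the experiments (adjusted p = 0.000347). *Nt5e* was lower in both, and by less in HDAC1cKO cells (-2.05 and -4.52, adjusted p = 0.000457).

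A smaller group had the larger change in the restimulated HDAC1cKO cells, where genotype, culture, and study again cannot be told apart. Among protein-coding genes with a mean of at least 1 FPKM in a group, at least 2-fold different without overlap in HDAC1cKO cells, and with a locus that covered no other gene, 14 passed the test of the difference with the larger log2(FPKM + 0.1) value here. This choice was made after the values had been seen. In 2 of them the other experiment was close to or under the pseudocount, so the smaller value there was set in part by that floor. These were *Ces2c*, at a mean of 0.202 FPKM in WT and 0.00524 FPKM in HDAC1cKO-HDAC2HET cells after 3 days, and *Lipm*, at 0.0125 and 0.0407 FPKM, and no larger change is read for them. The other lower ones were *Cyp1a1* (-2.74 against -0.44), *Gpr55* (-2.50 against -0.91), *Wdr54*, *Ier5l*, *Car2*, *2210016L21Rik* (-1.34 against -0.15), *Ctla4* (-1.26 against -0.49, adjusted p = 0.0114), and *Bspry*. Of these, *Cyp1a1*, *Wdr54*, *Car2*, and *2210016L21Rik* had WT means of 0.355, 0.584, 0.626, and 10.1 FPKM after 3 days. After restimulation their WT means were 4.84, 3.66, 3.67, and 25.0 FPKM. *Gpr55* and *Ier5l* were also lower in WT after 3 days, and *Ctla4* and *Bspry* were not (129 and 1.21 FPKM against 112 and 1.14 FPKM). The part of restimulation was not tested. The other higher ones were *Slc17a6*, a vesicular glutamate transporter gene (5.10, 3.26, and 5.49 FPKM in WT and 24.9, 16.3, and 21.8 FPKM in HDAC1cKO cells, a log2 fold change of 2.17 against 0.66), *Itga9*, *Hmgn3*, and *Ube2l6*. *Ube2l6*, the conjugating enzyme for ISG15, was at 14.5, 7.37, and 17.1 FPKM in WT and at 38.1, 28.6, and 28.8 FPKM in HDAC1cKO cells, with log2 fold changes of 1.36 here and -0.05 in the other experiment (adjusted p = 0.0182).

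**Figure D5:**
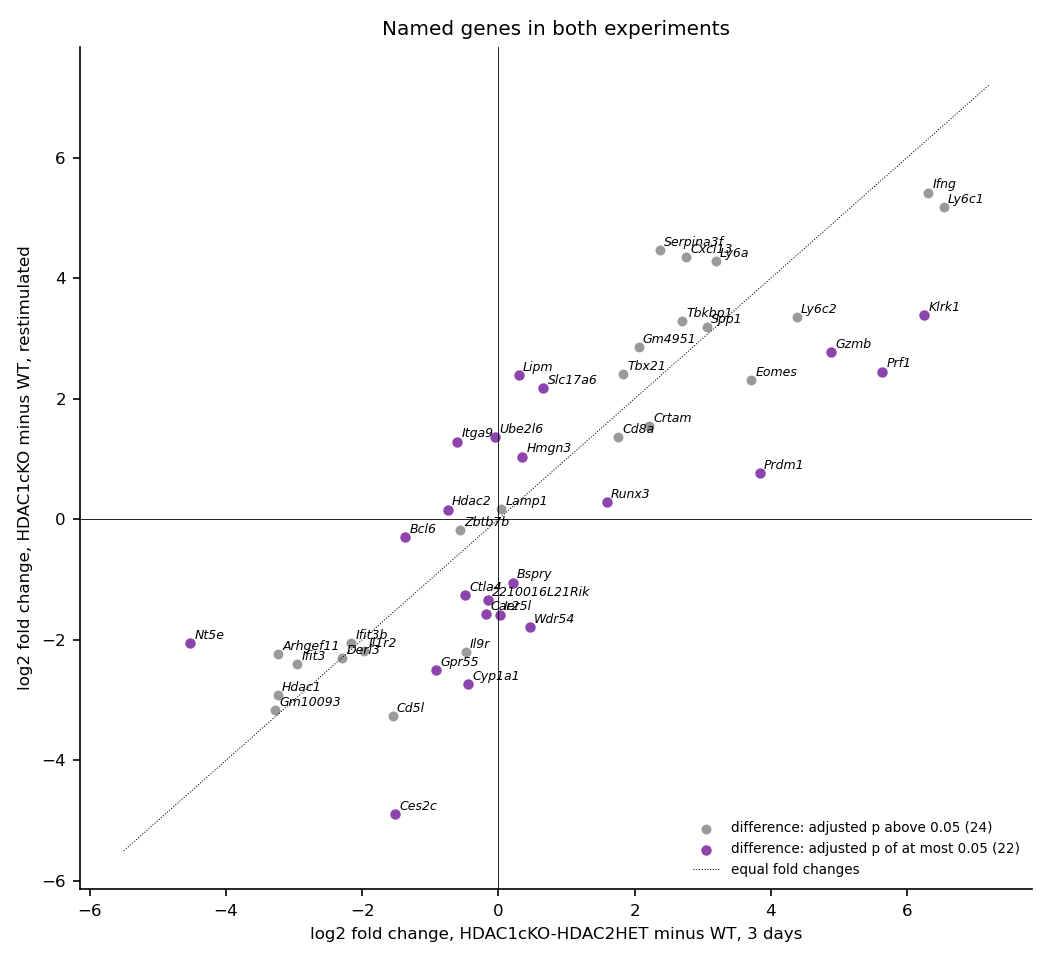
Points are 46 genes with a value above 0 in both groups and a value in both experiments, namely genes the study names, genes called, the 12 largest differences in each direction, and the 14 genes picked for a larger change in HDAC1cKO cells, with the log2 fold change of HDAC1cKO-HDAC2HET against WT cells after 3 days on the x axis and that of HDAC1cKO against WT cells after restimulation on the y axis. Purple marks the 22 genes whose difference had an adjusted p of at most 0.05, a number raised by that last choice, with *Prf1*, *Gzmb*, and *Klrk1* to the right of the line of equal change and *Cyp1a1* and *Slc17a6* farther from 0 on the y axis.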

How the data were processed

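RNA from the 6 libraries compared here, and from 8 libraries of the other experiment, was deposited by the authors as FPKM per gene or locus. Their methods name TopHat 2.0.13 and Cufflinks 2.2.1. Those methods do not say whether they cover the restimulated libraries, for which the paper cites an earlier study. The submitters' processing notes also name other tools, whose role is not given in the sources used here. The deposited FPKM hold no counts, so no interval for counting error could be given and depth was estimated from the steps between low values.

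Nameless loci were taken as a gene where locus and gene shared at least 0.8 of their joint span. Of the autosomal genes tested, 2834 were listed by name in all 6 libraries, 7454 were matched by position in all 6, and 3048 were mixed. Loci and named rows differed by a median of 0.0625 in WT and 0.0472 in HDAC1cKO samples on the log2 scale.

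Genes averaging 0.1 FPKM or more were tested on log2(FPKM + 0.1) with limma 3.58.1 (R 4.3.3) with an intensity trend and Benjamini-Hochberg adjustment, and fold changes of low genes are understated on this scale. The difference between the experiments was tested in 1 limma fit of all 14 samples. The fits were also run on simulated data with independent values for each sample. The simulation held no sex difference and no outlying sample, so it does not show how the fits handle these. Named genes were *Hdac1*, *Hdac2*, genes the study names, genes called at 2-fold and adjusted p of at most 0.05, the 12 largest non-overlapping differences in each direction among protein-coding genes at 1 FPKM or more, and per list its first 3 members and up to 5 non-overlapping members. Members and the 38 lists were chosen with earlier results of these data known. Replicate numbers did not pair the samples (correlations of 0.00406, -0.0127, and -0.0168). Promoters came from RefSeq. Values of a few genes are not reported here.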

Additional observations from a re-analysis of the deposited data

Results flagged for a closer look

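The change against WT differed between HDAC1cKO cells after restimulation and HDAC1cKO-HDAC2HET cells after 3 days for 1902 genes (limma over 14 samples, adjusted p of at most 0.05). Genotype, culture, and study cannot be told apart in this difference. Values are the log2 fold change in HDAC1cKO minus that in HDAC1cKO-HDAC2HET cells. Among genes of cytotoxic cells and their regulators that passed, the difference was -2.11 for *Gzmb*, -3.19 for *Prf1*, -2.86 for *Klrk1*, -1.31 for *Runx3*, and -3.08 for *Prdm1*. The differences of *Nkg7*, *Crtam*, and *Cd8a* did not pass. Restimulated *Prdm1* was near the pseudocount in both groups, so its value is set in part by it. The difference was 0.89 for *Hdac2*, 1.08 for *Bcl6*, 2.47 for *Nt5e*, and -0.77 for *Ctla4*. For *Ces2c* (-3.38) and *Lipm* (2.09) the other experiment was close to or under the pseudocount. Their values are set in part by it, and no larger change is read for them. Negative values with the larger change in HDAC1cKO cells were found for *2210016L21Rik* (-1.19), *Cyp1a1* (-2.30), *Gpr55* (-1.59), *Wdr54* (-2.25), *Ier5l* (-1.60), *Car2* (-1.39), and *Bspry* (-1.26). The opposite sign was found for *Hmgn3* (0.69), *Itga9* (1.90), *Ube2l6* (1.41), and *Slc17a6* (1.51). For *Snord98* (-10.98) and *Gm23823* (6.82) a whole group was listed at 0, so the size depends on the pseudocount. Groups of 3 were not tested for single samples that stand apart.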

How the results depend on the processing

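The few calls and the 2-fold counts depended on the processing. With a pseudocount of 1, 69 genes were at least 2-fold higher and 66 lower without overlap, and with a minimum of 1 FPKM these counts were 107 and 112 and 5 genes were called higher. Without a filter no gene was called higher and 4 were called lower, 4.91% of genes were higher and 6.23% lower without overlap, and *Hdac1* (-2.91) had an adjusted p of 0.0507. Calls above WT numbered 3 with median-ratio scaling, 0 without the intensity trend, 11 with sample weights, 2 with loci matched at 0.95 of the span, and 10 among protein-coding genes alone. With sex as a covariate, where the genotype term sets all HDAC1cKO samples against WT replicate 2 alone and that lone sample is assumed to vary like the others, 24 genes were called higher and 39 lower. With the spread taken over both experiments 150 were called higher and 148 lower, among them *Ifng* (adjusted p = 0.000395) and *Tbx21* (adjusted p = 0.0443). With replicate number as a block, which did not pair the samples, 0 were called higher and 5 lower, and 1266 genes differed between the experiments. In genes listed by name alone 5 were called lower, 6.49% were higher and 9.77% lower without overlap, 60 and 73 genes were at least 2-fold higher and lower, and 73 differed between the experiments. With separate spreads 1225 genes differed. The cause of these shifts was not tested.

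Leaving out 1 sample gave 2 to 20 calls above WT and 7 to 30 below, 13% to 15.9% of genes higher and 15.2% to 24.2% lower without overlap (the highest without WT replicate 1), 207 to 307 and 272 to 363 genes at least 2-fold, and 1423 to 2301 genes that differed between the experiments. *Hdac1* lay between -3.04 and -2.80 and *Hdac2* between 0.05 and 0.22. Log2 fold changes near 0 changed sign, as did that of *Ifit1*, which was -0.72 with all 6 samples and no covariate. With sample weights they were -0.03 for *Cd3e* and -0.07 for *Cd4*. With the sex covariate they were -0.02 for *Cd3g*, -0.16 for *Cd4*, -0.03 for *Dnmt1*, -0.08 for *Dnmt3a*, -0.20 for *Egr1*, 0.03 for *Gzmc*, -0.01 for *Hdac3*, 0.32 for *Ifit1*, and 0.08 for *Socs2*. Without 1 sample they ranged from -0.09 to 0.18 for *Cd3e*, -0.02 to 0.20 for *Cd3g*, -0.09 to 0.17 for *Cd4*, -0.01 to 0.08 for *Dnmt1*, -0.05 to 0.10 for *Dnmt3a*, -0.04 to 0.13 for *Egr1*, -1.26 to 0.34 for *Ifit1*, -0.12 to 0.02 for *Egr2*, -0.12 to 0.11 for *Klrd1*, -0.21 to 0.05 for *Pdcd1lg2*, -0.21 to 0.03 for *Cd3d*, -0.39 to 0.25 for *Gzmc*, -0.28 to 0.07 for *Socs2*, -0.01 to 0.21 for *Il2rb*, and -0.06 to 0.48 for *Il2*. Single WT samples, the sex imbalance, and low FPKM limit what 3 samples a group can show.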
